A study of Homo sapiens with 8 samples.

Results

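Ribosome biogenesis begins in the nucleolus, where RNA polymerase I transcribes ribosomal RNA and small nucleolar ribonucleoproteins (snoRNPs) guide its methylation and pseudouridylation. Assembly factors then build the precursors of the small and large ribosomal subunits. MYC and MYCN activate many of these genes, and MYCN is often amplified in neuroblastoma. The 34 genes described here were listed as nucleolar ribosome biogenesis factors driven by MYC, and they include 4 growth-linked genes whose products work outside ribosome assembly. They were found by their gene symbol in the array annotation. All 34 were measured, by 51 probes, out of 21524 named genes.

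The data comprise 8 one-color arrays of total RNA from NGP, an established human neuroblastoma line in which MYCN is amplified. In 4 samples the cells had received CFC1 cDNA by lentivirus, and in 4 a mock construct, and both kinds were selected with puromycin and grown in RPMI medium with fetal bovine serum. CFC1 encodes Cryptic, a co-receptor for Nodal. The labels do not say whether the cells were clones or pools, or how the 4 samples of each kind relate to one another as cultures. The p-values therefore rest on array-to-array spread alone, and that spread may be technical. Each value is a log2 value relative to a baseline per probe that is not stated, so it gives differences between arrays and no level of expression.

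The transduced gene did not follow the labels. CFC1 stood at 0.055, -0.69, -0.59 and -0.30 in the arrays labelled CFC1 and at 0.47, 1.10, 0.12 and -0.027 in the mock arrays, a difference of -0.80 (95% interval -1.45 to -0.15, adjusted p = 0.0398 in limma, exact two-sided permutation p = 0.057, with 0.029 the lowest that 4 against 4 arrays allow). Leaving out CFC1 replicate 2, 3 or 4 or mock replicate 1 or 2 ended the call (differences from -0.825 to -0.568). Its single probe is annotated to the CFC1 mRNA, but the stretch it matches is not given in the sources used here, and a probe outside the cDNA would not detect the transgene. The second group is therefore called the CFC1-labelled arrays, and every direction rests on the labels. Differences are the CFC1-labelled arrays minus the mock arrays, in log2 units, with n = 4 in each group. Of the noradrenergic neuroblastoma markers, 9 of the 11 measured fell and the other 2 did not pass, with array means from -0.157 to -0.052 in the CFC1-labelled arrays and from 1.139 to 1.213 in the mock arrays. Among the fibroblast and mural genes, 1 of 10 rose and 8 fell. Of 7 Schwann and glial markers, 5 fell and the other 2 did not pass. Of 8 endothelial markers 1 rose and 2 fell, of 7 immune markers 1 rose and 1 fell, and of 8 epithelial markers 2 rose and 3 fell. By comparison, 29.7% of all genes rose and 28.2% fell. The share that fell was above 28.2% in the noradrenergic, fibroblast and mural, Schwann and glial and epithelial lists. It was below 28.2% in the endothelial and immune lists. The lists are short, and none was tested against the shares of all genes. The part of cell identity in the results below was not tested, and without levels the defining markers cannot be read as present or absent. In bulk RNA, fewer cells of a type and less RNA per cell cannot be told apart.

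Ribosome biogenesis genes were more often higher than lower in the CFC1-labelled arrays. Of the 34 genes, 20 rose (58.8%), 8 fell (23.5%) and 6 did not pass an adjusted p of 0.05 in limma. Over all 21524 genes 29.7% rose and 28.2% fell, 57.9% in all against 82.4% of the 34. The median difference was 0.298 over the 34 genes and -0.086 over all genes, with quartiles of -0.074 and 0.618 against -0.402 and 0.37. The largest fall, of POLR1A, was 1.62-fold as the mean of 2 probes, at -1.307 and -0.093, of which the second did not pass. The fall of NOP56 likewise rests on 1 of its 3 probes (-1.921), with another higher at 0.342. At least 2-fold rises were found for 6 genes. The 6 were RRP9 of the small subunit pathway (2.96-fold), the polyamine enzyme ODC1 (2.45-fold), nucleostemin GNL3 (2.39-fold), NOP14 (2.21-fold), RRP12 (2.09-fold) and the pseudouridine synthase DKC1 (2.12-fold). Over all genes 9.71% rose by at least 2-fold, against 17.6% of the 34, and 8.97% fell as far. The count of 6 depends on the scaling. Quantile normalization left 2 of the 34 past 2-fold, RRP9 (1.096 on the log2 scale) and DKC1 (1.117), where 8.57% of all genes rose that far, and put ODC1, GNL3, NOP14 and RRP12 at 0.928, 0.920, 0.856 and 0.789. NOP10, at -0.900, was then the lowest of the 34, and POLR1A stood at -0.552. DKC1 was at 0.986 without mock replicate 1, and 1 of its 2 probes gave 0.452.

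The 28 genes that passed were the 28 whose groups did not overlap (82.4%, against 56.5% of all genes, of which 29.1% were higher and 27.3% lower). The arrays of a group lay close together for these genes. The median SD of the 34 was 0.05 over the CFC1-labelled arrays and 0.046 over the mock arrays, where all genes had 0.106 and 0.113. Of the 9573 genes with a pooled SD under 0.1, a limit set after the data were seen, 83.2% passed, and 25 of the 31 ribosome biogenesis genes under that limit did (80.6%). The total share of calls was thus near that of other genes of low spread. The share that rose was 58.1% of those 31 genes, against 44.5% of the 9573, and the share that fell was 22.6%, against 38.7%.

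**Figure D1:**
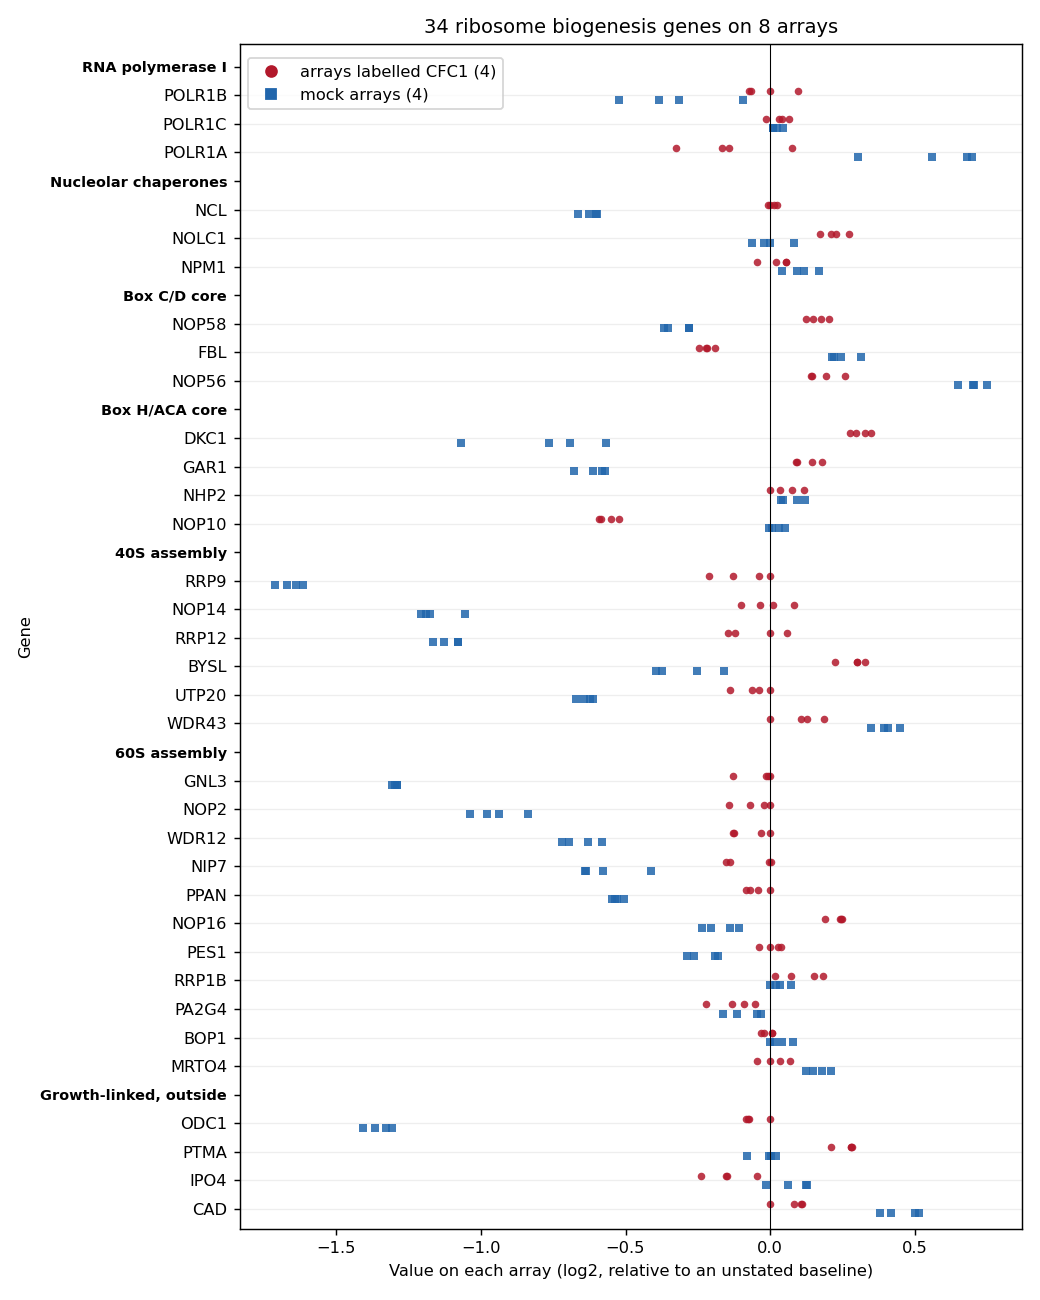
Values of the 34 genes on each array (log2, relative to an unstated baseline), with a circle for each of the 4 CFC1-labelled arrays and a square for each of the 4 mock arrays, grouped by role. The CFC1-labelled means lie between -0.563 and 0.312 and the mock means between -1.658 and 0.700.

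In 23 of the 28 genes that passed, the CFC1-labelled mean was closer to the unstated baseline than the mock mean was. The same share over all genes was not computed, so it cannot be read as a trait of these genes. A contrast of these groups cannot tell which of them departed from the parental cells. The spread of the mock means, from -1.658 to 0.700, is wider than that of the CFC1-labelled means in the plot of values by array.

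MYC and its partners bind the sequence CACGTG, the canonical E-box, and promoters from RefSeq (GRCh38.p14, 250 bases before to 50 after each annotated start) were available for 29 of the 34 genes. The other 5 are NOLC1, NOP58, RRP12, RRP1B and BOP1. CACGTG, which reads the same on both strands, was found in at least 1 promoter of 14 of the 29 genes (48.3%), where 10.7% of the 16413 measured genes with a promoter had it. The list was compiled as MYC-driven genes, so this share may come with the choice of genes. The motif was in 9 of 17 genes that rose (52.9%) and in 5 of 8 that fell (62.5%), where 13.2% of all measured genes that rose and 11.3% of those that fell had it. The variant CACGCG, searched on both strands, was in 9 of the 29 genes (31.0%) and in 17.9% of all measured genes. It was in 3 of the 17 that rose (17.6%, against 22.2% of all measured genes that rose), in 3 of the 8 that fell (37.5%, against 20.8%) and in 3 of the 4 that did not pass. Of the 16 CACGTG matches, 15 began within 35 bases of an annotated start (93.8%), a distance set after the matches were seen, against 526 of 2103 matches (25%) in other measured genes. The windows shown are those of genes that rose by at least 2-fold and hold the motif, which DKC1 does not, and of the 2 fallen genes whose calls held under all alternatives. They span 30 bases in the direction of transcription, 5′ to 3′, with the motif in capitals.
RRP9, chr3:51941892-51941921, - strand, motif starting 5 bases upstream: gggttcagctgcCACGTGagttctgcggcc
ODC1, chr2:10448024-10448053, - strand, motif starting 29 bases upstream: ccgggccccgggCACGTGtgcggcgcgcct
ODC1, chr2:10447990-10448019, - strand, motif starting 5 bases downstream: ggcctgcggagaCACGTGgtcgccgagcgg
GNL3, chr3:52686026-52686055, + strand, motif starting 6 bases downstream: ggcttcagttcaCACGTGgcgccagcggag
NOP14, chr4:2963374-2963403, - strand, motif starting 15 bases downstream: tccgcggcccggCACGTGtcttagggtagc
FBL, chr19:39846356-39846385, - strand, motif starting 6 bases downstream: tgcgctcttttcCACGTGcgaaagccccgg
NOP10, chr15:34343130-34343159, - strand, motif starting 11 bases upstream: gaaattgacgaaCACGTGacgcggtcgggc
NOP10, chr15:34343289-34343318, - strand, motif starting 170 bases upstream: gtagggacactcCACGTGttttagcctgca
ODC1 and NOP10 each have a pair of matches. A match describes letters in the promoter and does not show binding.

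Small subunit factors held 3 of the 6 rises past 2-fold. Of the 6 small subunit genes, 5 were higher (83.3%, against 29.7% of all genes) and 1 lower (16.7%, against 28.2%). Their median difference was 0.821. After quantile normalization RRP9 was the single one of them past 2-fold. RRP9, a protein of the U3 snoRNP that serves early pre-rRNA cleavage, stood at -0.13, -0.21, -0.038 and 0 in the CFC1-labelled arrays and at -1.67, -1.71, -1.64 and -1.62 in the mock arrays. All 4 CFC1-labelled arrays lay above all 4 mock arrays, and the difference was 1.56 (SE 0.0537, adjusted p = 1.57e-07, limma), the largest of the 34 except after quantile normalization, where DKC1 came before it. NOP14, a component of the small subunit processome, stood at 0.009, 0.082, -0.036 and -0.10 in the CFC1-labelled arrays and at -1.19, -1.06, -1.18 and -1.21 in the mock arrays. It rose by 1.15 (SE 0.0538, adjusted p = 7.99e-07), and its 2 probes gave 1.144 and 1.147. RRP12, an export factor known from yeast, stood at -0.15, -0.12, 0.059 and 0 in the CFC1-labelled arrays and at -1.13, -1.17, -1.08 and -1.08 in the mock arrays, a rise of 1.06 (SE 0.055, adjusted p = 1.38e-06) without overlap of the groups. BYSL, or bystin, rose by 0.58 (SE 0.0601, adjusted p = 7.17e-05) and UTP20, of the same processome, by 0.58 (SE 0.0389, adjusted p = 6.10e-06). WDR43, another processome protein, was at 0, 0.13, 0.19 and 0.11 in the CFC1-labelled arrays and at 0.39, 0.45, 0.35 and 0.41 in the mock arrays. It fell by 0.29 (adjusted p = 0.000955), and its call was lost after quantile normalization (-0.053, adjusted p = 0.54). Its difference was -0.192 when each array was aligned on its E1A control spots, hereafter E1A alignment.

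Of the 11 large subunit factors, 7 rose (63.6%, against 29.7% of all genes), 1 fell (9.09%, against 28.2%) and 3 did not pass. Their median difference was 0.404. Of all genes with a pooled SD under 0.1, 44.5% rose and 38.7% fell. GNL3, nucleostemin, a nucleolar GTP-binding protein of proliferating cells, was at 0, -0.013, -0.13 and -0.006 in the CFC1-labelled arrays and at -1.29, -1.30, -1.31 and -1.29 in the mock arrays. The mock arrays lay within a narrow band (SD 0.00788) far below the CFC1-labelled ones, and the rise was 1.26 (SE 0.038, adjusted p = 7.88e-08). NOP2, an rRNA methyltransferase, rose by 0.89 (SE 0.0546, adjusted p = 3.60e-06), with -0.14, 0, -0.022 and -0.07 in the CFC1-labelled arrays and -0.94, -1.04, -0.84 and -0.98 in the mock arrays. PES1, BOP1 and WDR12 form the PeBoW complex, which acts in large subunit maturation, and their differences were unequal in size. WDR12 rose by 0.59 (adjusted p = 2.11e-05) and PES1 by 0.24 (adjusted p = 0.000983), while BOP1, at -0.011 ± 0.0204 in the CFC1-labelled arrays and 0.033 ± 0.0344 in the mock arrays (SD, n = 4 each), differed by -0.044 (95% interval -0.12 to 0.031, adjusted p = 0.292). NIP7, PPAN and NOP16, further assembly factors, rose by 0.49, 0.48 and 0.40 (adjusted p = 0.000362, 5.41e-06 and 5.32e-05). PPAN shares its locus with a read-through transcript, PPAN-P2RY11, so its probe may detect both. MRTO4, related to a ribosomal stalk protein, fell by 0.15 (adjusted p = 0.0104), a call lost after quantile normalization (-0.022, adjusted p = 0.75) and with E1A alignment (-0.049, adjusted p = 0.445). RRP1B differed by 0.074 (95% interval -0.032 to 0.18) and PA2G4, a growth regulator also called EBP1, by -0.035 (95% interval -0.15 to 0.084). RRP1B did pass after quantile normalization (0.213, adjusted p = 0.0336) and with E1A alignment (0.176, adjusted p = 0.0111).

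The core proteins of box C/D snoRNPs, which guide rRNA methylation, did not move together. NOP58 was at 0.15, 0.12, 0.20 and 0.18 in the CFC1-labelled arrays and at -0.37, -0.35, -0.28 and -0.28 in the mock arrays, and it rose by 0.48 (SE 0.037, adjusted p = 1.27e-05). FBL, fibrillarin, the methyltransferase of the particle, was at -0.22, -0.19, -0.22 and -0.25 in the CFC1-labelled arrays and at 0.21, 0.22, 0.32 and 0.25 in the mock arrays. It fell by 0.47 (SE 0.035, adjusted p = 1.11e-05), and neither gene's groups overlapped. NOP56, the partner of NOP58, was at 0.14, 0.19, 0.26 and 0.14 in the CFC1-labelled arrays and at 0.75, 0.70, 0.65 and 0.70 in the mock arrays as the mean of 3 probes, with a difference of -0.52 (adjusted p = 1.47e-05). Its probes disagreed. One gave -1.921, another 0.342, both past the threshold in opposite directions, and the remaining one 0.030, so the fall of NOP56 rests on 1 probe, which lay between 0 and 0.277 in the CFC1-labelled arrays and between 1.969 and 2.205 in the mock arrays. All 3 are annotated to the same RefSeq mRNA. In RefSeq, snoRNA genes lie within several of these loci, 5 each in NOP56 and GNL3, 4 in NOP58 and 3 each in NCL and WDR43. After quantile normalization the difference was -0.153 (adjusted p = 0.0429).

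The box H/ACA proteins, which carry out pseudouridylation, also split. DKC1, dyskerin, the pseudouridine synthase, was at 0.30, 0.33, 0.28 and 0.35 in the CFC1-labelled arrays and at -1.07, -0.69, -0.76 and -0.57 in the mock arrays and rose by 1.09 (SE 0.102, adjusted p = 4.07e-05). Its 2 probes both rose, by 0.452 and 1.717, and the second ran from -1.961 to -0.915 over the mock arrays, which gives the gene its wide spread there. The place of DKC1 past 2-fold rests on that second probe. GAR1 was at 0.15, 0.093, 0.18 and 0.088 in the CFC1-labelled arrays and at -0.58, -0.61, -0.57 and -0.68 in the mock arrays, a rise of 0.74 (SE 0.0393, adjusted p = 1.61e-06). NOP10, a small structural protein of the same particle, went the other way. Its values were -0.59, -0.52, -0.59 and -0.55 in the CFC1-labelled arrays and 0.008, -0.004, 0.031 and 0.05 in the mock arrays, a fall of 0.58 (SE 0.0316, adjusted p = 1.75e-06), and -0.900 after quantile normalization. NHP2, the remaining core protein, differed by -0.018 (95% interval -0.11 to 0.074, adjusted p = 0.71). The 4 proteins of this particle therefore included 2 genes that rose, 1 that fell and 1 that did not pass. Over all genes, 29.7% rose and 28.2% fell.

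Probes of the RNA polymerase I subunits disagreed with each other. POLR1A, the largest subunit, was at 0.077, -0.17, -0.14 and -0.33 in the CFC1-labelled arrays and at 0.70, 0.30, 0.68 and 0.56 in the mock arrays as the mean of 2 probes, and fell by 0.70 (SE 0.115, adjusted p = 0.00106). The probe annotated to an Ensembl transcript gave -1.307, and the one annotated to the RefSeq mRNA gave -0.093 with an adjusted p of 0.106, so the call was lost where both probes had to pass. POLR1B, the other large catalytic subunit, rose by 0.32 (adjusted p = 0.0192), from a probe for the RefSeq mRNA at 0.730 and one for a cDNA clone at -0.095. Its call was lost without CFC1 replicate 3 (0.282, adjusted p = 0.053), without mock replicate 3 (0.299, adjusted p = 0.0502) after quantile normalization (0.269, adjusted p = 0.0609) and where both probes had to pass (adjusted p = 0.724). POLR1C, a subunit shared with RNA polymerase III, averaged 0.008 (adjusted p = 0.842), while its 3 probes passed at 0.191 and 0.208 for the RefSeq mRNA and at -0.375 for an Ensembl transcript. The plot of probes of the same gene shows these splits beside genes whose probes lay together.

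**Figure D2:**
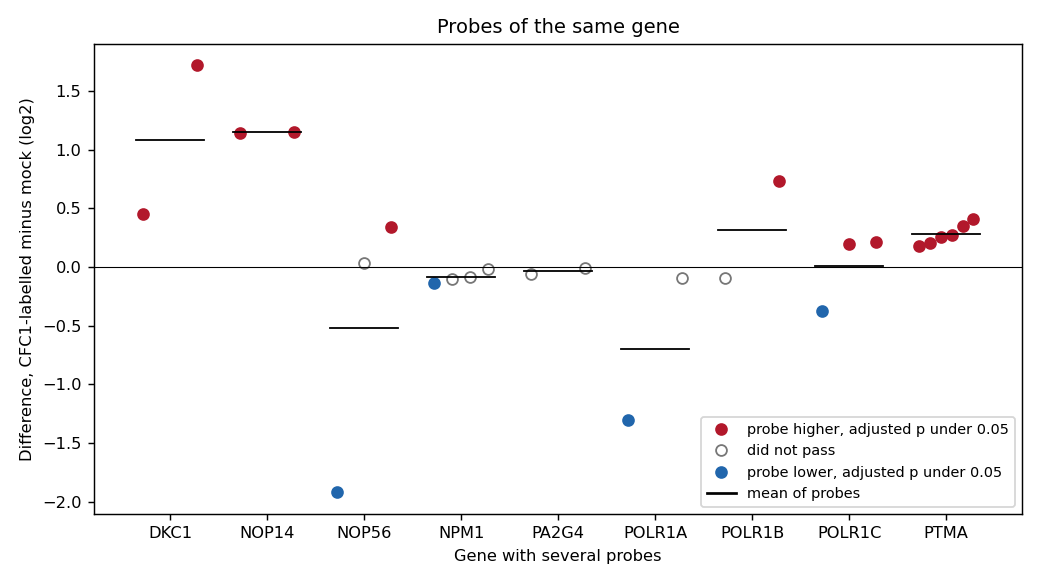
Difference of each probe (CFC1-labelled minus mock, log2) for the 9 genes with several probes, with filled points for probes past an adjusted p of 0.05 and a line at the mean of the probes. All 6 PTMA probes lie between 0.182 and 0.406, whereas the NOP56 probes run from -1.921 to 0.342.

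The nucleolar chaperones and scaffold proteins rose or did not pass. NCL, nucleolin, was at 0.012, 0.022, 0 and -0.007 in the CFC1-labelled arrays and at -0.60, -0.66, -0.60 and -0.63 in the mock arrays, a rise of 0.63 (SE 0.0299, adjusted p = 8.63e-07). NOLC1, the snoRNP-binding protein Nopp140, rose by 0.22 (adjusted p = 0.00257), and by 0.416 after quantile normalization. NPM1, nucleophosmin, averaged 0.021 ± 0.0473 in the CFC1-labelled arrays and 0.105 ± 0.0525 in the mock arrays (SD, n = 4 each). Its difference of -0.084 (95% interval -0.18 to 0.013) did not pass (adjusted p = 0.125). Its 4 probes ran from -0.138 to -0.014, and the lowest passed on its own (adjusted p = 0.0487, limma over all probes). RefSeq names 50 NPM1 pseudogenes, so its probes may also detect copies.

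The growth-linked genes outside ribosome assembly were divided. ODC1, ornithine decarboxylase, the first enzyme of polyamine synthesis and a MYC target, was at -0.083, -0.075, -0.074 and 0 in the CFC1-labelled arrays and at -1.33, -1.41, -1.37 and -1.31 in the mock arrays. It rose by 1.30 (SE 0.0372, adjusted p = 6.08e-08), and the groups did not overlap. CAD, the enzyme that opens pyrimidine synthesis and likewise a MYC target, was at 0, 0.084, 0.11 and 0.11 in the CFC1-labelled arrays and at 0.38, 0.42, 0.52 and 0.50 in the mock arrays. It fell by 0.38 (adjusted p = 0.000186), and the call was lost after quantile normalization (-0.142, adjusted p = 0.0745). PTMA, prothymosin alpha, rose by 0.28 (adjusted p = 0.000289) with all 6 probes past the threshold, and by 0.488 after quantile normalization. RefSeq names 15 PTMA pseudogenes. IPO4, a nuclear import receptor, was at -0.15, -0.24, -0.047 and -0.15 in the CFC1-labelled arrays and at -0.015, 0.061, 0.12 and 0.13 in the mock arrays. It fell by 0.22 (adjusted p = 0.00836), a call lost with E1A alignment (-0.119, adjusted p = 0.101).

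**Figure D3:**
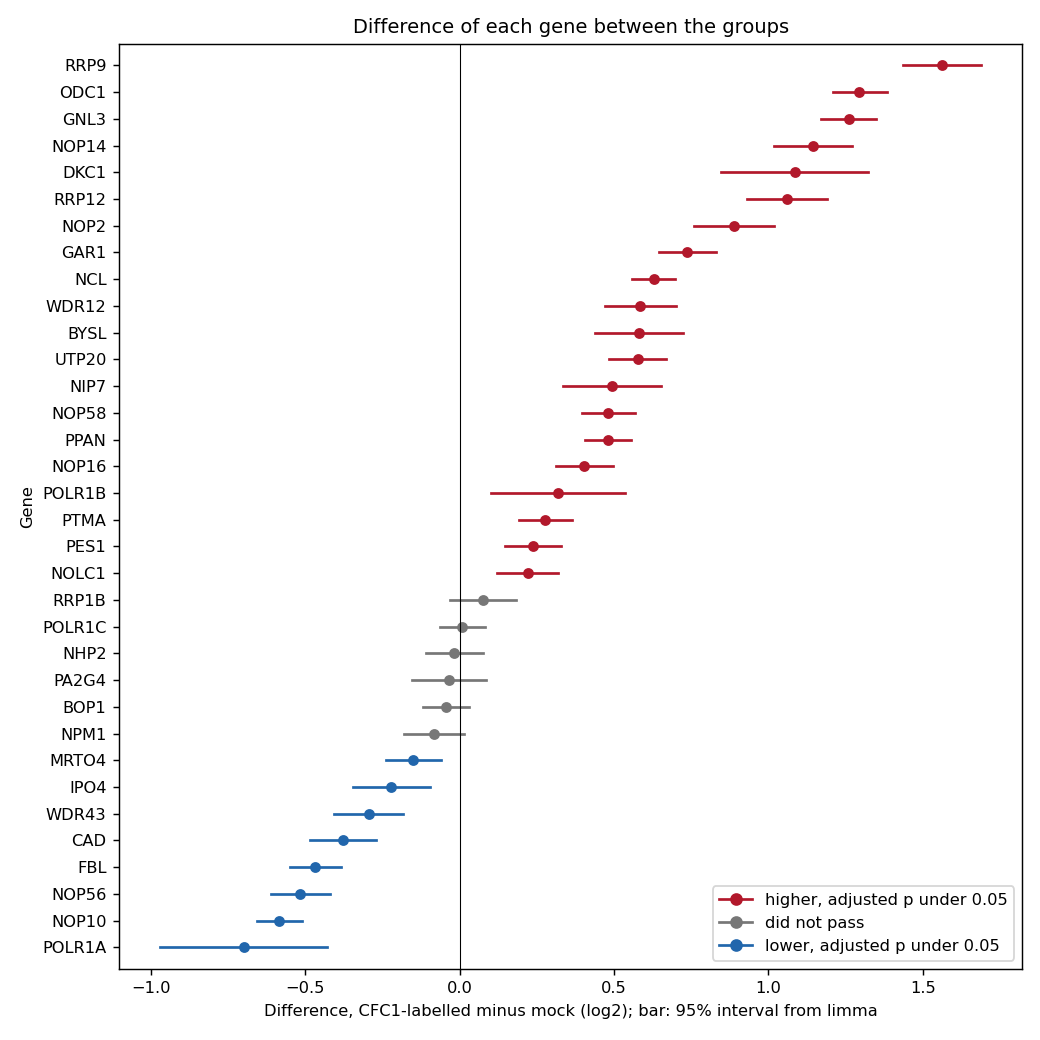
Difference of each of the 34 genes (CFC1-labelled minus mock, log2) with its 95% interval from limma, ordered by size. The range runs from -0.70 for POLR1A to 1.56 for RRP9, and the 6 genes that did not pass lie between -0.084 and 0.074.

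Of the 20 genes that rose, 19 kept the call and direction under all 16 alternatives run for single genes, and POLR1B was the exception. Of the 8 that fell, only FBL and NOP10 did so, and POLR1A, NOP56, WDR43, MRTO4, CAD and IPO4 each lost the call under at least 1 alternative. E1A alignment and quantile normalization moved the median difference of all genes up, by 0.102 and 0.037, so they did not treat falls and rises alike. None of the 28 reversed. The sign of NPM1, NHP2 and BOP1, which did not pass, turned positive after quantile normalization (0.025, 0.102 and 0.007) and with E1A alignment (0.018, 0.083 and 0.058), and that of PA2G4 turned positive in the second case (0.067). POLR1C stood at -0.004 without CFC1 replicate 1.

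Position along the chromosome was set beside each gene's difference. For each gene the median difference of the 10 nearest measured genes on each side was taken, leaving out the other ribosome biogenesis genes, with gene order from RefSeq (GRCh38.p14). The sign of that median was shared by 22 of the 34 genes, and by 18 of the 28 that passed. The same count was not made over all measured genes, so these shares have no reference. Some of the largest rises lay among genes that were higher too: the neighbours of NOP14 had a median difference of 0.81, those of GNL3 0.79, of DKC1 0.53, of NOP2 0.42 and of ODC1 0.37. Among the 20 neighbours of NOP14 and likewise of GNL3, 13 rose and 2 fell, where 29.7% of all genes rose and 28.2% fell. RRP9 and RRP12 stood apart from theirs, with neighbour medians of 0.031 and -0.11 against differences of 1.56 and 1.06. On the lower side, the neighbours of IPO4 were at -0.80 with 17 of 20 fallen, and those of NOP10 at -0.55 with 13 of 20 fallen, close to the -0.58 of NOP10 itself. FBL fell beside neighbours at -0.11, and CAD beside neighbours at 0.15. With 5 neighbours on each side, the median turned sign for POLR1A (-0.139, against 0.18 with 10), NOP16 (0.251, against -0.186) and RRP9 (-0.099). It was -0.056 for PTMA, against 0.0 with 10, and 0.173 for DKC1. Over the 34 genes the difference and the neighbour median had a Pearson r of 0.577 and a Spearman rho of 0.451. These are descriptions across genes, which share the same 8 arrays and in part the same neighbours.

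**Figure D4:**
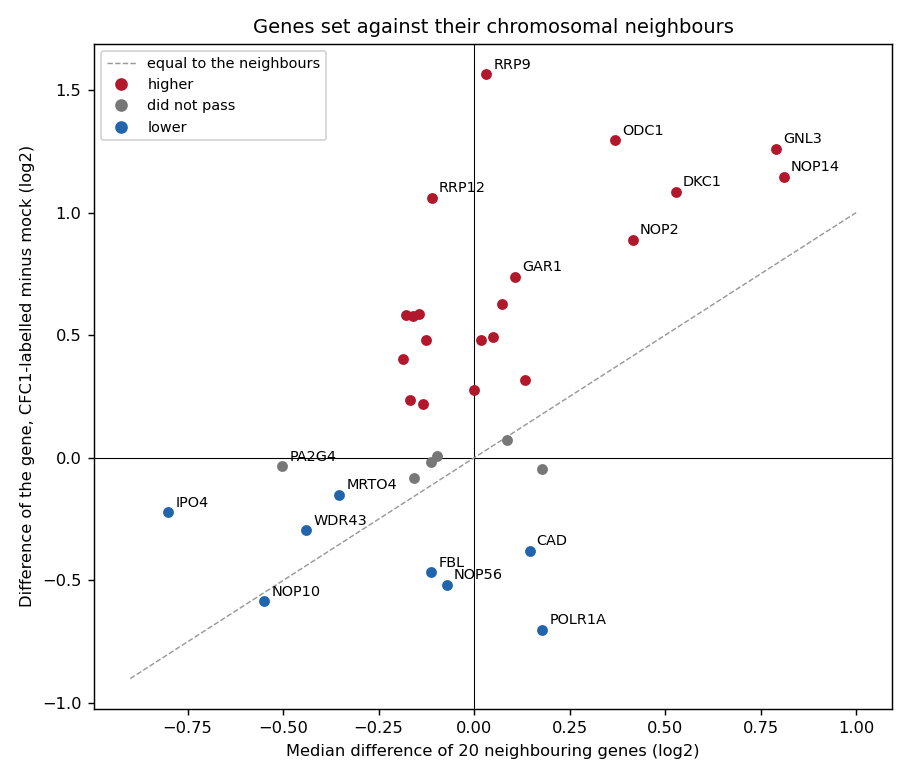
Difference of each of the 34 genes (vertical axis, log2) against the median difference of its 20 nearest measured neighbours (horizontal axis, log2), with a dashed line where both are equal. RRP9 and RRP12 sit high above neighbours close to 0, while NOP14 and GNL3 lie to the right, at neighbour medians of 0.81 and 0.79.

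MYC fell and MYCN rose, neither of them under all alternatives. MYC was at -0.16, -0.26, -0.085 and 0.065 in the CFC1-labelled arrays and at 0.67, 0.91, 0.60 and 1.69 in the mock arrays, and fell by 1.08 (SE 0.237, adjusted p = 0.00512). Of its 2 probes, one gave -1.421 (adjusted p = 1.48e-05) and the other -0.736 (adjusted p = 0.269), so the call was lost when all probes had to pass. MYCN was at 0, -0.15, -0.015 and -0.079 in the CFC1-labelled arrays and at -0.16, -0.21, -0.25 and -0.26 in the mock arrays. It rose by 0.16 (adjusted p = 0.0162), a call lost after quantile normalization (0.127, adjusted p = 0.127) and with each array centred on its median (0.166, adjusted p = 0.0624), while E1A alignment gave 0.264. Of the 13 genes of the MYC network, 3 rose (23.1%, against 29.7% of all genes) and 8 fell (61.5%, against 28.2%). The median difference of the network was -0.226. Where all probes of a gene had to pass, 4 of its genes fell, and over all genes 4721 fell rather than 6068. MLXIPL, a glucose-responsive partner of MLX, rose by 3.88 and MNT, a MAX-binding repressor, by 0.38, and MNT lost its call where all probes had to pass. MLXIP, the paralog of MLXIPL, fell by 2.76 and MGA, a MAX-binding repressor of E-box genes, by 2.20. The network list thus holds repressors beside MYC and MYCN, so its counts give no direction of MYC activity.

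Other genes of the pathway, in lists drawn up by function with earlier results of these data known, were also more often higher than lower where they act in assembly. Over all genes 29.7% rose and 28.2% fell, and of the 9573 genes with a pooled SD under 0.1, 44.5% rose and 38.7% fell. The lists were not matched for spread. Of 48 further large subunit assembly genes, 33 rose (68.8%) and 9 fell (18.8%), with a median of 0.264. LYAR, a nucleolar growth regulator, rose by 1.58 and EBNA1BP2 by 1.14, whereas NOP53 fell by 1.11 and EFL1, a GTPase of late maturation, by 0.66. After quantile normalization 5 fell, where over all genes 5007 fell rather than 6068. Of 49 further small subunit genes, 24 rose (49.0%) and 10 fell (20.4%), with a median of 0.213. EMG1, an rRNA methyltransferase, rose by 1.47 and DDX10, a helicase, by 1.25, while the processome protein UTP14A fell by 0.66 and the helicase DDX52 by 0.52. After quantile normalization 5 of the 49 fell, and DDX52 did not pass (-0.228, adjusted p = 0.302). Of 12 further RNA polymerase I subunits and factors, 6 rose and 4 fell. RRN3, the initiation factor TIF-IA, rose by 0.93 and POLR1D by 0.71, while TAF1C and TAF1D, of the promoter selectivity factor, fell by 0.60 and 0.48, and stood at -0.279 and -0.252 after quantile normalization. POLR1D lost its call where all probes had to pass, and so did EFL1. Of 13 snoRNP assembly genes, 7 rose (53.8%) and 5 fell (38.5%). RPAP3 and TCOF1, or treacle, were higher by 0.80 and 0.72. ZNHIT3 and TGS1 were at -0.55 and -0.44, or at -0.277 and -0.228 after quantile normalization.

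The genes of the ribosomal proteins themselves were more often lower. Of 77 measured genes for cytosolic ribosomal proteins, 10 rose (13.0%, against 29.7% of all genes) and 47 fell (61.0%, against 28.2%). Their median difference was -0.240, with quartiles of -0.388 and -0.003. Most of these differences were small, and 1 of the 77 fell and 2 rose by at least 2-fold. The 2 were paralogs of common ribosomal proteins: RPL39L rose by 4.77 (SE 0.229, adjusted p = 8.96e-07) and RPS27L, a p53 target, by 1.62 (SE 0.0421, adjusted p = 3.75e-08). RPL39L was at 5.24, 5.29, 5.32 and 5.15 in the CFC1-labelled arrays and at 1.08, 0, 0.67 and 0.16 in the mock arrays. RPL22 fell by 0.91 (SE 0.0324, adjusted p = 1.87e-07), and stood at -0.593 after quantile normalization. The single gene of the list past 2-fold on the lower side is counted but not named. Ribosomal protein genes have many processed copies in the genome, and probes may detect them. Whether the share of rises differs between these lists was not tested.

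**Figure D5:**
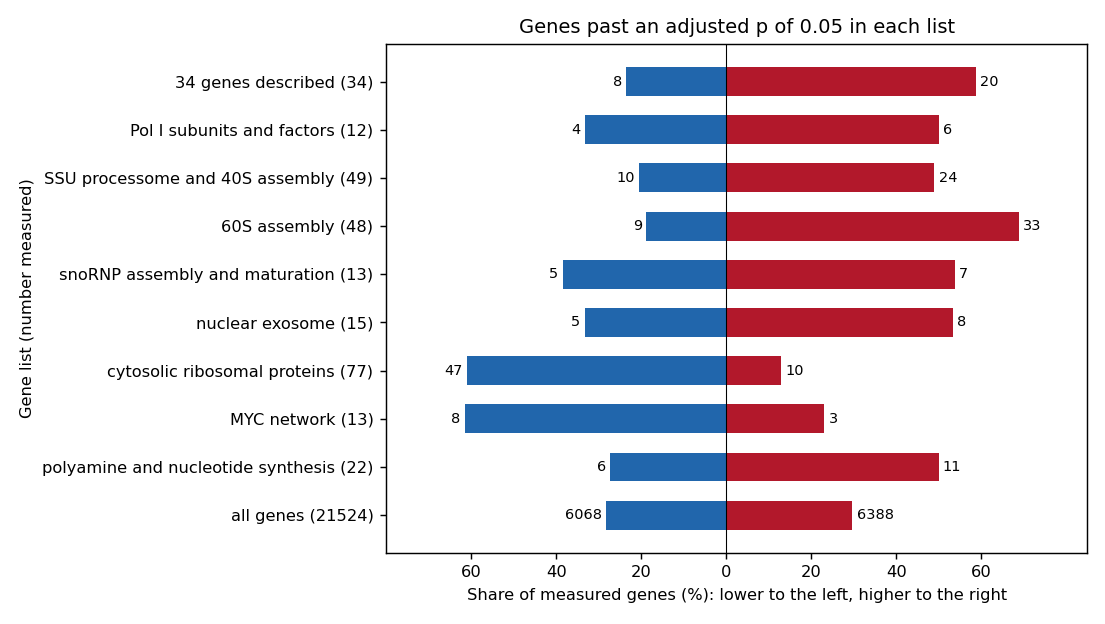
Share of measured genes that passed an adjusted p of 0.05 in each list (%), higher in the CFC1-labelled arrays to the right and lower to the left, with the number of genes at each bar. In the 34 genes 20 rose and 8 fell, in the cytosolic ribosomal proteins 10 rose and 47 fell, and in all genes 6388 rose and 6068 fell.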

How the data were processed

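Total RNA was labelled with Cyanine3 and hybridised to one-color Agilent arrays, per the labels' protocols. The deposited table holds 50739 values per array on a logarithmic scale, read here as log2 and set by the authors against a baseline per probe. What that baseline was, and which log base, background treatment and normalization were used, the sources used here do not say. The values run from -13.001 to 9.812, and array medians from -0.145 to 0.139. Precision is limited by there being 4 arrays a group.

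After 140 control rows were left out, 50599 probes remained, 31993 of them with a gene symbol in the platform annotation and 18606 unnamed. Symbols were updated through RefSeq (GRCh38.p14), and probes of a gene were averaged to give 21524 genes. The 4 CFC1-labelled and 4 mock arrays were compared with limma 3.58.1 in R 4.3.3 (lmFit, eBayes, equal weights, no replicate block), and p-values were adjusted over all genes by Benjamini-Hochberg, two-sided, with a threshold of 0.05. The fit was tested on simulated data. CFC1 also had an exact permutation test over 70 arrangements. Summaries used Python 3.11.15, numpy 2.4.6 and pandas 2.3.3.

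The 34 genes and all lists were chosen with earlier results of these data known. Values on all arrays are given for the 6 largest rises and 6 largest falls among the 34, for CFC1, MYC and MYCN, and for others where probes or particles are compared, chosen after their values were seen. Each pathway list is named by up to 2 genes with the largest rise and 2 with the largest fall. The alternatives were a replicate block, quantile normalization, median centring, array weights, a prior variance trend, unmoderated variances, a fit over all probes in which all probes of a gene must pass, and leaving out each array. E1A alignment, in which each array was shifted to its E1A control spots, and a natural log reading were added after the data were seen.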

Additional observations from a re-analysis of the deposited data

Results flagged for a closer look

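In 74 groups of 4 arrays, for the 34 genes and CFC1, MYC and MYCN, 4 had 1 array far from the other 3, and chance gives about 1 in 20 such groups. All 4 are CFC1-labelled groups of a narrow range. NOP16 stood at 0.189 in CFC1 replicate 2, below the others at 0.243 to 0.247. GNL3 stood at -0.127 in CFC1 replicate 3, below the others at -0.013 to 0. ODC1 stood at 0 in CFC1 replicate 4, above the others at -0.083 to -0.074. PTMA stood at 0.211 in CFC1 replicate 1, below the others at 0.280 to 0.282. Each of these 4 genes kept its call without the array in question.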

How the results depend on the processing

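Over all genes 6388 rose and 6068 fell, and after quantile normalization 6285 rose and 5007 fell. Of the 34 genes, 27 to 28 passed without any single array, with 19 to 20 higher and 8 lower each time. Quantile normalization left 20 of the 34 higher and 5 lower. Their median difference of 0.298 ran from 0.271 to 0.338 without any single array, and was 0.379 after quantile normalization, 0.400 with E1A alignment and 0.430 if the deposited logarithm is natural, which would give 9 rather than 6 genes past 2-fold, where quantile normalization left 2 and leaving out mock replicate 1 left 5. E1A alignment moved the median of all genes by 0.102, to 0.016. The difference of CFC1 lost its call with E1A alignment (-0.694), and at an unchanged -0.796 with the replicate block (adjusted p = 0.0761), probe-level fitting (adjusted p = 0.0546) and unmoderated variances (adjusted p = 0.0662), and ran from -0.944 to -0.568 without any single array. Quantile normalization and E1A alignment left 5 and 6 small subunit genes lower, and 5 and 5 large subunit genes. Of polyamine and nucleotide synthesis they left 3 and 3 genes lower. Over all genes they left 5007 and 4896 lower, against 6068 for the values as deposited. The genes higher were then 6285 and 7052, against 6388. The fit over all probes left 4 MYC network genes lower, and 4721 of all genes. The count of genes with the sign of their neighbours was 22 under all 3 alternatives run for it, although with 5 neighbours on each side the genes counted were not all the same. The cause of these changes was not tested. The labels do not say that replicate numbers pair the arrays, and they were not treated as pairs. The correlation of same-numbered arrays' deviations from the group means was 0.138, 0.199, 0.074 and 0.19 for numbers 1 to 4, and every array correlated best with its own number, which is a hint of pairing from the data and not from the design. With the replicate block all 28 calls among the 34 genes held. POLR1C ran from -0.004, without CFC1 replicate 1, to 0.023, without CFC1 replicate 3. After quantile normalization NPM1, NHP2 and BOP1 were 0.025, 0.102 and 0.007, and with E1A alignment NPM1, NHP2, BOP1 and PA2G4 were 0.018, 0.083, 0.058 and 0.067. Distance from background is unknown, because the table holds no level.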

Other observations

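The nuclear exosome, which trims pre-rRNA, moved in both directions. Of its 15 measured genes and cofactors 8 rose (53.3%, against 29.7% of all genes) and 5 fell (33.3%, against 28.2%), with a median difference of 0.225. The core subunits EXOSC3 and EXOSC7 rose by 0.92 (SE 0.0308, adjusted p = 1.37e-07, limma) and 0.90 (SE 0.064, adjusted p = 8.39e-06, limma), whereas EXOSC10, the nuclear exonuclease, was at -0.11, -0.12, -0.043 and -0.083 in the CFC1-labelled arrays and at 0.78, 0.79, 0.87 and 0.90 in the mock arrays, a fall of 0.92. The cofactor MPHOSPH6 fell by 0.45, and stood at -0.225 after quantile normalization.

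Of 22 other genes of polyamine and nucleotide synthesis, 11 rose and 6 fell (27.3%), with a median difference of 0.124. Over all genes 29.7% rose and 28.2% fell, so the share that fell was close to that of all genes. IMPDH1, which commits purine synthesis to guanine nucleotides, rose by 1.27, and PRPS2, which makes the ribose donor, by 1.22. SRM, spermidine synthase, downstream of ODC1, fell by 0.51, with 0.10, 0, 0.049 and 0.13 in the CFC1-labelled arrays and 0.55, 0.54, 0.68 and 0.56 in the mock arrays, and its difference was -0.247 after quantile normalization. ADSL, of purine synthesis, fell by 0.43.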
